A study of Mus musculus with 18 samples.

Results

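The genes described here are known from Schwann cells, the glia that wrap and myelinate axons outside the brain and spinal cord. Some of the genes are also made by other cells. The 6 are Pmp22, Pmp2, Prx, Egr2, Ncmap and Drp2, chosen by name to read the share of nerve root tissue in a cord sample. All 6 were found among the 58570 gene loci of the deposited table. Whole spinal cords of the SMNdelta7 mouse strain were sequenced as total RNA after ribosomal RNA removal. The groups were homozygote (SMA) and heterozygote (control) cords, each taken on postnatal days 2, 6 or 10 (written P2, P6 and P10). All 6 groups share the strain, which models spinal muscular atrophy, a loss of motor neurons caused by too little SMN protein; in this line the affected pups lack mouse Smn1 and carry human SMN transgenes. Each group stood for 3 labelled libraries, which the authors had combined into 1 value per locus, and the labels do not say whether nerve roots or ganglia were trimmed from the cords, or the sex or litter of the pups.

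In peripheral nerve, the transcription factor Egr2 (also called Krox20) starts the myelin programme of Schwann cells, together with Sox10 and downstream of the axonal signal Nrg1. The compact layers of the sheath hold the membrane protein Pmp22 and the lipid-binding protein Pmp2, while Ncmap lies in the loosely packed parts. Periaxin, the product of Prx, and the dystrophin-related protein Drp2 form a complex with dystroglycan that ties the outer surface of the sheath to the basal lamina. Myelin inside the cord is made by oligodendrocytes and shares only some of these proteins, and Schwann cells belong to the nerve roots rather than to the cord itself.

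Levels are given as FPKM, which scales fragments to transcript length and library depth, with the lower and upper bounds of the authors' interval, which is the only measure of spread held and was read as a 95% interval. Estimated fragments per group ranged from 6881671 to 7386338. Each log ratio between groups was divided by a standard error (SE) from that interval and read as a two-sided z value, and a gene was called at a Benjamini-Hochberg adjusted p under 0.05 over all loci tested. Cord markers chosen for this check were present: 11 of 12 reached FPKM 1 in control cords at P2 and 12 of 12 at P10, with Gfap of astrocytes at FPKM 65.6 and 318. Smn1 went with the labels at P2 (control FPKM 2.70, SMA 0.0210) and at P6 (control 4.46, SMA listed at 0). At P10 the group labelled SMA had Smn1 at FPKM 2.82, or 79.8% of the control value of 3.54, which goes against its label, and every P10 result below carries that doubt. These Smn1 values are themselves uncertain. Control and SMA intervals were 0 to 6.56 and 0 to 1.92 at P2, and 0 to 8.12 and 0 to 6.08 at P10. The SMA group at P2 had unusual values for its age in other genes. Its 14 genes of central myelin summed to FPKM 3877, against 318 in control at P2. At P6 that sum was 2050 in control and 2306 in SMA. The 12 cord markers summed to 669 in SMA and 440 in control at P2. The reason was not tested, and every SMA result at P2 below carries that doubt.

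Pmp22, a tetraspan protein of compact myelin that many non-neural cells also make, was the most abundant of the 6. Control cords had FPKM 23.2 at P2 (interval 12.1 to 34.3), 62.4 at P6 (36.9 to 87.9) and 93.4 at P10 (52.9 to 134). In SMA cords it was 29.7 at P2 (17.2 to 42.1), 76.6 at P6 (37.9 to 115) and 48.8 in the group labelled SMA at P10 (25.4 to 72.2). The control level thus stood higher at each later age, while the SMA level was highest at P6. From the top the order was control P10, SMA P6, control P6, SMA P10, SMA P2 and control P2, and the intervals of all neighbours in it overlapped. Of the 15 pairs of groups, 4 had intervals apart: control P2 lay below control P6, SMA P6 and control P10, and SMA P2 lay below control P10. How often pairs lie apart over all loci was not computed. This count and those for the genes below therefore only describe the values. Pmp22 (ENSMUSG00000018217.12) is a protein-coding gene on chromosome 11 from 63128982 to 63159547, plus strand, of GRCm38.

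Prx, which encodes the periaxin scaffold of the Schwann cell membrane, had the 6 groups in the same order as Pmp22 at a lower level. Control cords had FPKM 2.57 at P2 (1.07 to 4.06), 4.23 at P6 (2.34 to 6.12) and 7.77 at P10 (4.06 to 11.5). SMA cords had 3.34 at P2 (1.67 to 5.01), 5.75 at P6 (2.08 to 9.42) and 3.61 at P10 (1.59 to 5.64). Only 1 of the 15 pairs, control P10 above control P2, had intervals apart. Prx (ENSMUSG00000053198.13) is on the plus strand of chromosome 7, from 27499324 to 27520214.

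Ncmap, a small protein of non-compact myelin, had that order of groups too, close to the detection minimum of FPKM 1. In order of age it was FPKM 0.975, 1.62 and 2.33 in controls and 1.24, 2.26 and 1.48 in SMA. The counts behind these values were 30.5 to 77.8 estimated fragments a group, and all 15 pairs of intervals overlapped. Ncmap (ENSMUSG00000043924.16) is on the minus strand of chromosome 4, from 135369576 to 135398227.

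Pmp2, a fatty acid binding protein of peripheral myelin, was measured only together with its neighbours. Its locus joined Pmp2 (ENSMUSG00000052468.7, chromosome 3 from 10179851 to 10183929, minus strand) with Fabp9, a related gene known from the testis, and Gm37389, an annotated gene that spans both from 10179852 to 10197262. Reads of the 3 cannot be told apart here, so the values belong to the joined locus. In order of age the controls had FPKM 2.89 (interval 0 to 5.98), 9.15 (4.55 to 13.8) and 10.5 (4.91 to 16.2), and SMA cords 2.59 (0.822 to 4.37), 8.85 (3.50 to 14.2) and 3.69 (0 to 7.53). The level was high in both genotypes at P6 and in controls at P10, and low in both at P2 and in the group labelled SMA at P10. SMA P2 lay below control P6 and control P10 with intervals apart, and the other 13 of 15 pairs overlapped.

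Egr2, the factor that switches on the others in Schwann cells and that neurons elsewhere induce with activity, was near FPKM 1 in every group. Controls had FPKM 1.06, 1.63 and 0.987 at P2, P6 and P10, and SMA cords 0.712, 1.33 and 0.661. The level was highest at P6 in both genotypes and lower in SMA than in control at each age, but every interval reached down to 0 and all 15 pairs overlapped. The group values rest on 14.6 to 29.4 estimated fragments. At P6 the deposited counts put it the other way round, with 26.6 fragments in control and 29.4 in SMA, so its direction at that age depended on which deposited value was read. Egr2 (ENSMUSG00000037868.15) is on the plus strand of chromosome 10, from 67535475 to 67542188.

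Drp2, the dystrophin relative that binds periaxin in Schwann cells and has been found at synapses in rat brain, did not follow the other genes. It had FPKM 9.70, 9.38 and 9.03 in controls and 9.49, 9.52 and 8.72 in SMA at P2, P6 and P10. The highest of the 6 values was 1.11 times the lowest, against 4.02 times for Pmp22 and 4.06 times for the Pmp2 locus. At 509 to 587 estimated fragments a group, its intervals were about as narrow as those of Pmp22, with the upper bound 44.0% to 46.0% above the value. Drp2 (ENSMUSG00000000223.13) is on the plus strand of chromosome X, from 134404551 to 134456573.

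**Figure D1:**
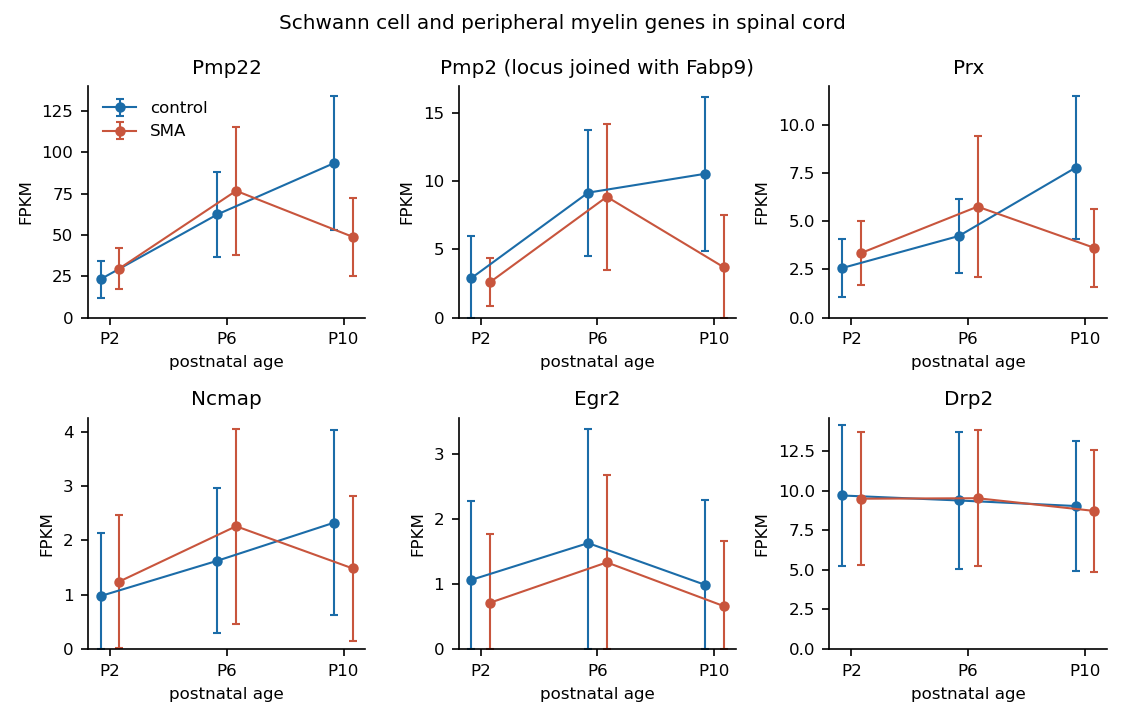
Level of each gene in FPKM (y axis, from 0) by postnatal age (x axis) in control (blue) and SMA (red) cords; points are the authors' group values and bars their interval. Pmp22, the Pmp2 locus, Prx and Ncmap are highest in control at P10 and lower in the group labelled SMA at that age, while Drp2 is level at FPKM 8.72 to 9.70.

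Promoter windows of the 3 single-symbol genes that shared this course, Pmp22, Prx and Ncmap, are shown so that the sequence around their starts can be read beside it. Each window is the RefSeq stretch on GRCm38.p6 from 250 bases before a gene's start to 50 after it, and the one shown is the window that holds the outer edge of the locus in the deposited table. They are chr11:63128732-63129031 (plus strand) for Pmp22, chr7:27499074-27499373 (plus strand) for Prx and chr4:135398178-135398477 (minus strand) for Ncmap. Capitals mark a match, on either strand, to the EGR family motif GNGTGGGNG.
Pmp22: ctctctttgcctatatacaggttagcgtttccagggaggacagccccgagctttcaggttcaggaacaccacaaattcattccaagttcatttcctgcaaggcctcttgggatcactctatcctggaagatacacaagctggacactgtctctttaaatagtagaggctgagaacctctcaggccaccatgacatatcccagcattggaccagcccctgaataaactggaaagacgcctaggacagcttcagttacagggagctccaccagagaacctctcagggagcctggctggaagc
Prx: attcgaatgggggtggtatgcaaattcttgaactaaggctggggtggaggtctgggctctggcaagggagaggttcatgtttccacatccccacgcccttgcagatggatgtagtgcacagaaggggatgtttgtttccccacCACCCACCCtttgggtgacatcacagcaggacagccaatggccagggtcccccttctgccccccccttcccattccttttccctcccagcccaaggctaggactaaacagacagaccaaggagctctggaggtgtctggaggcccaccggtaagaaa
Ncmap: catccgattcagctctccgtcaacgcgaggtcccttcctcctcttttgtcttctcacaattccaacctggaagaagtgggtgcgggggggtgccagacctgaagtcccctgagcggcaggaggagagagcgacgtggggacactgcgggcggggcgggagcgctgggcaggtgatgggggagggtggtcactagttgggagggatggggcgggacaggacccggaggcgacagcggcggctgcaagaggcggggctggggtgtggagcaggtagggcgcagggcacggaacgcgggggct

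Of the 6 genes, 4 had an entry in the promoter table; Pmp2 and Drp2 had none. The Prx window holds 1 match to GNGTGGGNG on the minus strand, whose first base lies at -107 from the start, and the Pmp22 and Ncmap windows hold none. The stricter EGR letters GCGNGGGCG, which overlap the first motif in part, and the SOX family letters ACAANG are in none of the 3 windows. Across all 32851 promoter windows of this length, 14.3% hold GNGTGGGNG, 5.55% hold GCGNGGGCG and 41.2% hold ACAANG, beside 1 of these 3 windows with the first and none with the others. Egr2, not printed here, has 5 listed windows, of which the one at its locus edge holds GNGTGGGNG with its first base at 31 from the start and another holds ACAANG at -113, both on the plus strand. A match describes letters in the window and not binding, and Pmp22 has 4 listed windows and Ncmap 2, of which the other 4 hold none of the motifs either.

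The maturation of control cords from P2 to P10 gave the only call among the 6 genes. Pmp22 rose 4.02-fold, a log2 ratio of 2.01 ± 0.48 (SE; adjusted p = 0.00559). This was 1 of 6 genes called, against 0.631% of all loci tested (126 of 19956). Prx had a ratio of 3.03 (log2 1.60 ± 0.55, unadjusted p = 0.00390, adjusted p = 0.309), the Pmp2 locus 3.64 (log2 1.86 ± 0.88) and Ncmap 2.38 (log2 1.25 ± 1.02), and none of these was called. With the interval read as that of 1 library, which narrows the SE, the Pmp2 locus and Prx were called too, at adjusted p = 0.00839 and 4.57e-05. Egr2 and Drp2 had ratios of 0.929 and 0.931. The median log2 ratio of the 6 genes was 1.43, beside 0.02 over all loci tested.

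The 2 steps of the control course are given for each gene as values without a call, and a difference in timing between genes was not tested. From P2 to P6 the ratio was 2.69 for Pmp22, 3.17 for the Pmp2 locus, 1.65 for Prx and 1.67 for Ncmap, and from P6 to P10 it was 1.50, 1.15, 1.84 and 1.43. By value alone, the Pmp2 locus had most of its difference before P6 and Prx slightly more of it after P6. The errors were large beside this, with log2 1.66 ± 0.87 and then 0.20 ± 0.54 for the Pmp2 locus. Prx had 0.72 ± 0.54 and then 0.88 ± 0.48. No member was called at either step, against 0.112% of loci from P2 to P6 and 0.0751% from P6 to P10. Pmp22 from P2 to P6 had an unadjusted p of 0.00207 and the Pmp2 locus 0.0558. With the narrower reading of the interval, Pmp22 was called at this step (log2 1.43 ± 0.27).

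In SMA cords the same genes had higher values at P6 than at P2 and lower values at P10 than at P6. From P2 to P6 the ratio was 2.58 for Pmp22, 3.41 for the Pmp2 locus, 1.72 for Prx, 1.82 for Ncmap and 1.87 for Egr2, with Drp2 at 1.00. From P6 to P10 all 6 values were lower, with ratios of 0.637 for Pmp22, 0.417 for the Pmp2 locus, 0.628 for Prx, 0.656 for Ncmap, 0.496 for Egr2 and 0.916 for Drp2. No member was called at either step, where 0.0312% and 0.0398% of all loci were, or from P2 to P10 in SMA, where 0.0602% of loci were and Egr2 was below the minimum. With the narrower reading Pmp22 and the Pmp2 locus were called from P2 to P6 in SMA (log2 1.37 ± 0.28 and 1.77 ± 0.39).

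**Figure D2:**
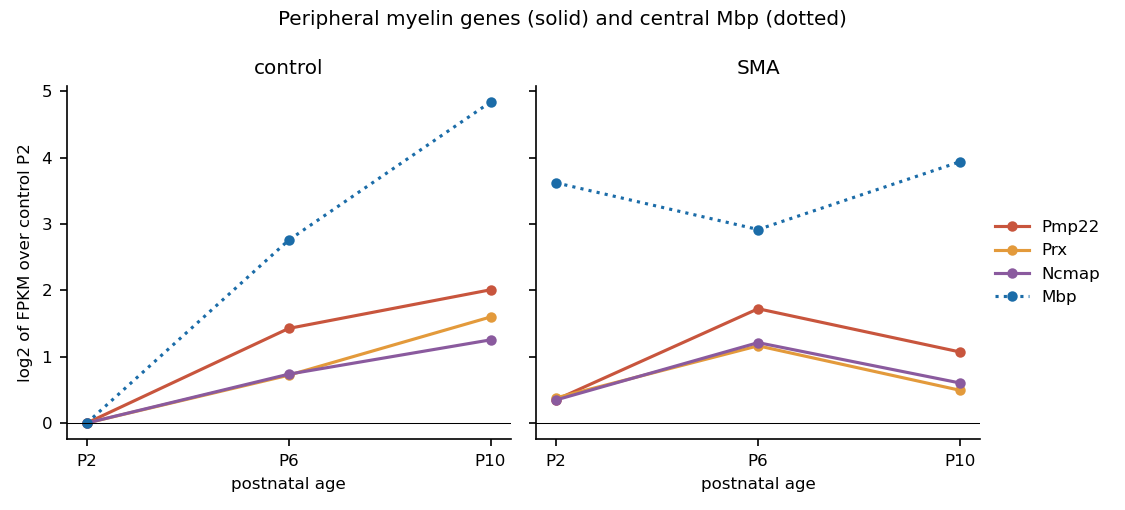
Log2 of FPKM relative to control P2 (y axis) by postnatal age (x axis), in control (left) and SMA (right), for Pmp22, Prx and Ncmap (solid) and the central myelin gene Mbp (dotted). In SMA the peripheral genes peak at P6, while Mbp has its lowest SMA value there.

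At P2 and P6 the SMA against control ratios of these genes were small beside their errors. At P2 the ratio was 1.28 for Pmp22 (log2 0.35 ± 0.47), 1.30 for Prx (0.38 ± 0.56) and 1.27 for Ncmap (0.35 ± 1.13), with the Pmp2 locus at 0.897, Egr2 at 0.669 and Drp2 at 0.979. At P6 it was 1.23 for Pmp22 (log2 0.30 ± 0.48), 1.36 for Prx (0.44 ± 0.57) and 1.39 for Ncmap (0.48 ± 0.84), with the Pmp2 locus at 0.967, Egr2 at 0.818 and Drp2 at 1.02. No member was called at either age, against 0.126% of loci at P2 and 0.0458% at P6. The median log2 ratio of the 6 was 0.16 at P2 and 0.16 at P6, beside -0.01 and 0.07 over all loci.

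At P10 the group labelled SMA had lower values than control for each of these genes. Pmp22 was at 52.2% of control (log2 ratio -0.94 ± 0.48, unadjusted p = 0.0488), Prx at 46.5% (-1.11 ± 0.54, unadjusted p = 0.0415), the Pmp2 locus at 35.1% (-1.51 ± 0.86, unadjusted p = 0.0788) and Ncmap at 63.7% (-0.65 ± 0.85). Drp2 was at 96.6% (-0.05 ± 0.47, interval of the log2 ratio -0.97 to 0.86). Egr2, at FPKM 0.987 and 0.661, was below the minimum and was not tested. None of the 5 tested was called (adjusted p = 0.999997 for each by the z test), against 0.0397% of all 20157 loci, and the median of the 5 was -0.94 beside 0.04 over all loci. In whole cord RNA, fewer Schwann cells, less RNA per cell and a smaller share of nerve root tissue in the sample cannot be told apart. None of these was tested, and the labels do not say whether roots were trimmed.

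These P10 levels were near those of younger controls. In the group labelled SMA at P10, Pmp22 was 0.782 times the control value at P6. For Prx that ratio was 0.854, for Ncmap 0.912 and for the Pmp2 locus 0.404. Each of the 4 values thus lay between the control values at P2 and P6.

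**Figure D3:**
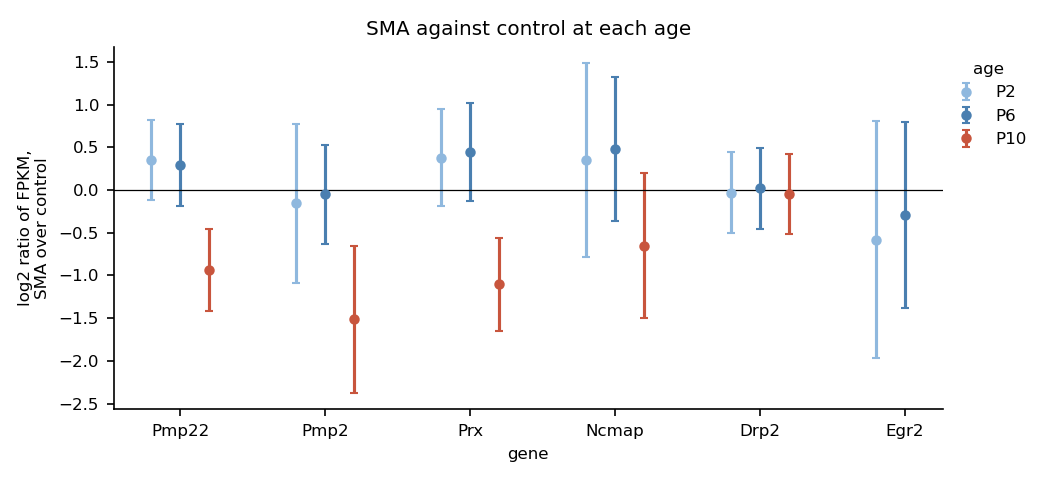
Log2 ratio of FPKM, SMA over control (y axis), for each gene (x axis) at P2, P6 and P10 (colours); bars are 1 SE from the authors' interval. Pmp22, the Pmp2 locus, Prx and Ncmap lie below 0 at P10 and none of them does so at P2 or P6 except the Pmp2 locus, whereas Drp2 is near 0 at each age and Egr2 has no P10 value because it missed the minimum.

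The change of the SMA against control difference from P2 to P10 was tested by the z test, as the difference of 2 log ratios from the 4 groups. It was -1.29 ± 0.67 on the log2 scale for Pmp22 (unadjusted p = 0.0533) and -1.49 ± 0.78 for Prx (unadjusted p = 0.0578). The Pmp2 locus had -1.36 ± 1.27, Ncmap -0.999 ± 1.42, Drp2 -0.02 ± 0.66 and Egr2 0.00 ± 2.02. None was called (adjusted p = 0.999996 for each), against 0.0574% of all loci. A genotype difference shared by the ages was tested by limma on log2(FPKM + 1), with the 3 ages standing in as replicates and 2 residual degrees of freedom. It was -0.10 ± 0.26 for Pmp22, -0.09 ± 0.27 for Prx, 0.02 ± 0.18 for Ncmap and -0.02 ± 0.09 for Drp2. The Pmp2 locus had -0.49 ± 0.26 and Egr2 -0.23 ± 0.13, both lower in SMA by FPKM at 3 of 3 ages. None was called (adjusted p = 0.999 for each, limma), where 0.00455% of 21960 loci were. Without the P10 groups, which leaves 1 residual degree of freedom, the difference was 0.32 ± 0.08 for Pmp22 and 0.33 ± 0.10 for Prx, higher in SMA at both remaining ages and not called (adjusted p = 0.707 for each, limma). The Pmp2 locus was then at -0.08 ± 0.10, Egr2 at -0.22 ± 0.12 and Ncmap at 0.25 ± 0.12, so the direction of Pmp22 and Prx over the ages rests on the P10 groups.

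Among the other Schwann cell genes, S100b, a calcium-binding protein that astrocytes also make, was FPKM 6.44, 15.6 and 42.5 in controls and 22.1, 19.1 and 27.7 in SMA. Gjb1, the connexin of both Schwann cells and oligodendrocytes, had a control level of FPKM 1.14 and an SMA level of 9.42 at P2, and it rose in controls from P2 to P10 to 23.1 (log2 4.33 ± 0.72, adjusted p = 1.07e-06). Of the 12 genes in this list, Gjb1 was the only one called from P2 to P10 in control, where 0.631% of all loci were. None of the 12 was called between SMA and control at any age. At P10, 10 of the 12 had lower values in the group labelled SMA. The exceptions, named after their values were seen, were Ngfr, the neurotrophin receptor of immature Schwann cells, at FPKM 1.60 in control and 2.85 in SMA, and Foxd3, a neural crest factor, at 0.518 and 0.692, under the minimum.

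The signals and factors around Egr2 went both ways in controls from P2 to P10, with 8 of 13 tested higher and 5 lower, log2 ratios of -1.02 to 2.16 and a median of 0.19. Of 13 tested members of the list, Erbb3, the Nrg1 receptor of Schwann cells, and Sox10 rose in controls from P2 to P10, Erbb3 from FPKM 1.54 to 6.88 (log2 2.16 ± 0.50, adjusted p = 0.00413) and Sox10 from 6.09 to 22.0 (log2 1.85 ± 0.48, adjusted p = 0.0199). Over all loci tested, 0.631% were called in that comparison. Oligodendrocytes use both Erbb3 and Sox10 too. The most abundant members, Id4 and Sox2, known to hold back myelinating glia, were FPKM 41.7 and 19.5 at P2 and 20.6 and 22.1 at P10 in controls, neither called. Between SMA and control no member of this list was called at P2, P6 or P10, and the list medians were -0.01, 0.09 and -0.21. The partners of periaxin and Drp2 in the dystroglycan complex and its laminin ligands, 12 genes, had no member called in any of the 10 comparisons by the z test. The most abundant of them, Dmd (dystrophin) and Dag1 (dystroglycan), were FPKM 32.7 and 27.7 in control at P2, and their P10 SMA against control log2 ratios were 0.09 and -0.17. At P10 9 of the 12 had lower values in the group labelled SMA, with a median of -0.26.

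Central myelin, made by oligodendrocytes, was the comparison nearest in function. At P2, 7 of its 14 genes rose in SMA against control: Mobp (log2 4.51), Ermn (4.21), Mal (3.81), Mag (3.71), Ugt8a (3.21), Fa2h (3.17) and Cldn11 (3.08), all at an adjusted p of 0.0483 or less by the z test. Over all loci tested, 0.126% were called at P2. All 14 central genes were tested, but Ermn (FPKM 0.438 in control) and Opalin (0.0578) reached the minimum through SMA alone. Their ratios therefore rest on a control level near 0. The list median was 3.66, where the 6 peripheral genes had 0 called and a median of 0.16. Mbp, the major basic protein of myelin, was 150 in control (interval 80.5 to 219) against 1840 in SMA (0 to 6286) on the FPKM scale, not called. The SMA value of Mbp at P2 is thus very uncertain, and so is any ratio to it. The summed level of the 14 central genes in SMA at P2, FPKM 3877, lay above both groups at P6 (2050 and 2306). Why it did so was not tested, and it bears on each P2 comparison of SMA with control given here. Pmp22 was 23.2 against 29.7. The FPKM ratio of Pmp22 to Mbp was therefore 0.155, 0.0617 and 0.0218 in controls of rising age, and 0.0161, 0.0678 and 0.0213 in SMA. Within SMA the central genes also had the opposite course, with 14 of 14 lower at P6 than at P2 and 14 of 14 higher at P10 than at P6, none called, where 5 of the 6 peripheral genes had higher and then lower values; the exception, Drp2, was flat from P2 to P6 (log2 0.0045 ± 0.47, and -0.12 from estimated counts). At P10 the medians of the central and peripheral genes were alike, at -0.78 and -0.94. In controls 13 of 14 central genes were called higher at P10 than at P2, from Aspa (log2 2.43) to Mobp (5.71) among those at FPKM 1 or more at both ages; Ermn and Opalin reached it at P10 alone. Over all loci tested, 0.631% were called from P2 to P10 in control. All 14 central genes were tested, with a median of 4.79 beside 1.43 for the 6 peripheral genes. For the change of the SMA difference between those ages, Mal, Ermn, Cldn11 and Fa2h were called lower (log2 -4.48, -4.91, -3.64 and -3.94), beside none of the 6 peripheral genes. Over all loci tested, 0.0574% were called for that change. The Ermn value again rests on its control level near 0 at P2. The difference between these lists was not tested.

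Markers of other tissue that surrounds the cord moved with these genes at some ages. At P10, 9 of 9 tested meningeal and fibroblast genes had lower values in the group labelled SMA, with a median log2 ratio of -0.88 and a summed level of FPKM 234 in control and 133 in SMA. Those sums were 196 and 184 at P2, and 235 and 270 at P6. Within SMA, 9 of 9 were higher at P6 than at P2 and 9 of 9 lower at P10 than at P6, with none called. The 6 genes described here had these directions too, except for Drp2, which was flat from P2 to P6. Of the 12 other Schwann cell genes, 8 were higher and 4 lower at P6 than at P2 in SMA. From P6 to P10, 8 of those were lower and 4 higher. Col1a2, a fibrillar collagen chain, was FPKM 55.9 and 34.8, and Igf2, a growth factor of the meninges, 54.8 and 36.7, neither called. At P6 all 12 genes of sensory ganglion neurons had higher values in SMA, with a summed level of FPKM 68.8 in control and 85.5 in SMA. Of them 9 reached FPKM 1 there, 5 of those through SMA alone, so no median is given for them. The sums were 72.8 and 54.9 at P2 and 67.7 and 54.8 at P10, with Mrgprd at 0 in SMA at P2. The defining sodium channel of pain-sensing neurons, Scn10a (named after its value was seen), had a control level of FPKM 0.550 and an SMA level of 1.22 at P6, and it was at 0.241 or less in every other group. The ganglion genes Tac1 and Prph, which cord neurons also express, were FPKM 29.8 and 21.8 in control and 34.0 and 25.1 in SMA at P6. Skeletal muscle genes summed to FPKM 14.6 and 20.5 at P2, 9.40 and 9.77 at P6, and 3.03 and 3.38 at P10 (control, then SMA), with Acta1 at 0.686 and 0.870 and Mylpf at 0.654 and 0.694 at P10. The part of these tissues in the levels of the Schwann cell genes was not tested.

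Among 12146 protein-coding loci with a single symbol and FPKM 1 or more in a group, the likeness of each course to those of the 6 genes was measured over the 6 group values. Likeness was the root mean square (RMS) difference of the log2(FPKM + 1) values, each centred on its own mean, beside a spread of Pmp22 itself of 0.701. Loci near Pmp22 included H2-Ab1 (0.262), a class II antigen-presenting gene at FPKM 0.0663 to 2.05, and Baiap3 (0.284). The Pmp2 locus was nearest to Ogn (0.241), a matrix proteoglycan of connective tissue, then to Pmp22 itself (0.267) and Slc4a1 (0.309), the anion exchanger of red cells.

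For the other genes both the spread and the distance to the nearest loci were smaller. Prx, with a spread of 0.428, was nearest to Tmem255b (0.133), Hipk4 (0.133) and Tesc (0.140). Ncmap, with 0.271, was nearest to Pacsin3 (0.0574), Ndufaf2 (0.0661) and Frmpd1 (0.0664). Egr2, with 0.233, was nearest to Ptgr1 (0.0726), Lyrm7 (0.0837) and Col8a1 (0.0858). Drp2, with 0.0469, was nearest to Sec61a1 (0.0198), Pomgnt2 (0.0211) and Astn2 (0.0231).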

How the data were processed

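Total RNA of 18 whole spinal cord libraries, 3 a group by the labels, was depleted of ribosomal RNA and sequenced from a stranded kit. Per the submitters' processing notes the genome build was GRCm38 and the tools named are FastQC, Picard, Cuffdiff, TopHat2 2.1.1, Cufflinks 2.2.1 and Bowtie2 2.2.4; annotation, strand setting and normalization are not given in the sources used here. The authors deposited 1 FPKM per group and locus with a lower and an upper bound, and estimated counts with a model variance; the estimated counts hold decimals and sum to similar totals, as scaled values do. No value per library was analysed here, so there is no replicate n or SD. p-values rest on the authors' model interval.

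The z test used log2 ratios of FPKM and an SE of the distance to the upper bound divided by 1.96, on loci at FPKM 1 or more in a compared group, above 0 in each and with OK status. Its z values had a robust standard deviation of 0.269 to 0.568, narrower than a standard normal, so it calls few loci. The fit across ages used limma 3.58.1 in R 4.3.3. The other steps ran in Python 3.11.15 with matplotlib 3.10.9, scipy 1.17.1, pandas 2.3.3 and numpy 2.4.6. Both tests were run on simulated data with noise and changes of chosen size, which does not show how they perform on these data. Gene coordinates and types are from GENCODE M21 on GRCm38.

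Genes named are the 6 members, the called and the 2 most abundant members of each list, the 3 genes nearest each member, and Smn1 and Mbp; others are said to be named after their values. Members and lists were chosen with earlier results of these data known. Some genes that this rule names are not reported here, though counts, sums and medians over a list include all of its genes.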

Additional observations from a re-analysis of the deposited data

How the results depend on the processing

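No paired analysis was possible because the deposited columns hold 1 value per group and carry no replicate numbers; for the same reason no single library could be left out. Of 307 alternative values for single members, 291 kept their direction and side of the threshold. The number of members called stayed the same in 54 of 57 alternatives; with the interval read as that of 1 library it was 1 from P2 to P6 in control, 3 from P2 to P10 in control and 2 from P2 to P6 in SMA.

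Reversed values were all uncalled. From estimated counts, Egr2 at P6 was 0.14 and Drp2 -0.061, Drp2 from P2 to P6 in SMA was -0.12, and for the change of the SMA difference between P2 and P10 Egr2 was 0.043 and Drp2 0.020; with log2(FPKM + 1) Egr2 was 0.010 there. Across ages Ncmap was -0.055 without P2, -0.12 without P6 and -0.12 from estimated counts, and without P10 Pmp22 was 0.32 and Prx 0.33. The cause was not tested.

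Counts over all loci moved more. From estimated counts the calls were 0 at P6 (9 by FPKM; 8 at an unadjusted p under 0.05), 0 at P10 (8 by FPKM; 29 unadjusted), 12 from P2 to P6 in control (22 by FPKM), 216 from P2 to P10 in control (126 by FPKM), 0 from P2 to P6 in SMA (6 by FPKM; 31 unadjusted), 2 from P6 to P10 in SMA (8 by FPKM), 2 from P2 to P10 in SMA (12 by FPKM) and 23 for the change of the SMA difference (12 by FPKM), all by the z test. With the interval read as that of 1 library, SMA against control gave 123 at P2 (24 in the main reading), 26 at P6 and 22 at P10. That reading gave 98 from P2 to P6, 207 from P6 to P10 (15 in the main reading) and 920 from P2 to P10 in control; 31, 46 and 44 in SMA; and 163 for the change of the SMA difference. A minimum of FPKM 5 gave 20 for that change. Across ages limma called 1 locus; it called 0 from estimated counts (409 unadjusted), 0 at a minimum of FPKM 5 (173), 0 with no minimum (1319), 0 without P10 (1198), 5 without P2 and 8 without P6. Depth limits Egr2 and Ncmap most, at 14.6 to 77.8 estimated fragments a group.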

Other observations

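Pmp2 belongs to the fatty acid binding proteins, and its relatives in the cord had other courses. Fabp7, of immature astrocytes and radial glia, was FPKM 383, 353 and 191 in controls at P2, P6 and P10 and 259, 311 and 288 in SMA. Fabp5 was level at FPKM 138 to 157 over all groups. Fabp4, an adipocyte gene, was FPKM 3.64, 1.47 and 0.324 in controls and 7.46, 10.6 and 0.200 in SMA. None of the 4 relatives, Fabp3 included, was called in a comparison of SMA with control by the z test. Ucp1, the uncoupling protein of brown fat, was at FPKM 8.44 in SMA at P6 and 0.159 in the group labelled SMA at P10. The log2 ratio was -5.73 ± 1.23 (adjusted p = 0.00826 by the z test). Ucp1 reached the minimum through P6 alone, so that ratio rests on a P10 level near 0. Adipose markers summed to FPKM 28.4 in SMA and 6.05 in control at P6. At P2 these sums were 23.8 and 12.3, and at P10 they were 2.36 and 2.78. From P2 to P10 in SMA, 1 of the 3 adipose markers tested was called lower, against 0.0602% of all loci. The log2 ratios of those 3 ran from -5.60 to -0.54. The part of adipose tissue in the levels of the Schwann cell genes was not tested.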
